A study of Arabidopsis thaliana with 3 samples.

Results

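The isoamylases ISA1 (AT2G39930), ISA2 (AT1G03310) and ISA3 (AT4G09020) form the isoamylase family of starch debranching proteins in Arabidopsis thaliana. They were taken here as 3 genes of 27444 protein-coding nuclear genes, and a peak was assigned to one of them when its interval overlapped the gene span extended by 3 kb on each side. By this rule ISA2 had 1 peak in each of the lists of FHY3 binding, and ISA1 and ISA3 had none in either. The 2 intervals are 1 of 1477 listed peaks in replicate 1 and 1 of 1361 in replicate 2.

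Starch is made of branched glucan chains, and isoamylases cut branch points that would keep the glucan from packing into a granule. ISA1 is the catalytic subunit used in synthesis, and ISA2 is its partner, which lacks activity of its own but is needed for the Arabidopsis complex to work. ISA3 removes branches while starch is broken down in the dark. FHY3, a transposase-derived transcription factor, is known for its part in phytochrome A responses to far-red light, and ISA2 is on a list of genes reported as its targets. The origin of that report is not given here, so the peak at ISA2 is no independent check of it.

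FHY3 binding was mapped by chromatin immunoprecipitation and sequencing (ChIP-seq) in inflorescences with flowers up to stage 8, from plants grown with 16 h of light and 8 h of dark. All plants carried 35S:3FLAG-FHY3-3HA, a tagged FHY3 under a promoter active in most cells, in the fhy3-4 mutant, so binding at the native FHY3 level was not measured. The 2 ChIP samples, precipitated through the FLAG tag, are separate biological replicates by the submitters' description. The third sample was input DNA without antibody, whose values were not used here. No conditions were compared, and the inflorescence contains many cell types.

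Each replicate came with its own peak list, holding an interval and the authors' score per peak. Scores ran from 23.03 to 3100 in both lists, on an unstated scale, and were read only as ranks among peaks of the same replicate. Read numbers were not part of the files, so depth is unknown, and no peak carries a counting error. Nuclear peaks numbered 1475 and 1354, of which 62.5% and 66.8% overlapped a peak of the other list by at least 1 bp. No source used here names a genome build for these intervals, so every distance between a peak and a gene assumes the frame of TAIR10.1. Strand was not used, and gene ends are called lower-numbered or higher-numbered.

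The ISA2 peak lay across the lower-numbered end of the gene in both replicates. In replicate 1 it ran on chromosome 1 from 812835 to 813505, with a width of 671 bp. In replicate 2 it ran from 812712 to 813628, with a width of 917 bp. The first interval lay wholly inside the second, which reached 123 bp farther on each side, so both had their midpoint at 813170. That midpoint was 243 bp outside ISA2.

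Less of the peak lay on ISA2 than on its neighbour. ISA2 held 93 bp of the interval in replicate 1 (13.9% of it) and 216 bp in replicate 2 (23.6%). AT1G03290, a gene without a name in the annotation used, held 382 and 505 bp (56.9% and 55.1%), and the midpoint lay inside it, 46 bp from its end. Only 196 bp separated the ends of AT1G03290 and ISA2, and the peak covered all of them. ATDUF1 (AT1G03300), which encodes a protein with a domain of unknown function and lies within the span of AT1G03290, held 252 and 375 bp. The 4 other protein-coding genes within 3 kb of ISA2 lay beyond its higher-numbered end. These were AT1G03320, AT1G03325, LSM2, which encodes an Sm-like protein of RNA processing, and AT1G03340, and no peak overlapped any of them. The lists do not say which of the genes around the midpoint the binding belongs to.

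**Figure D1:**
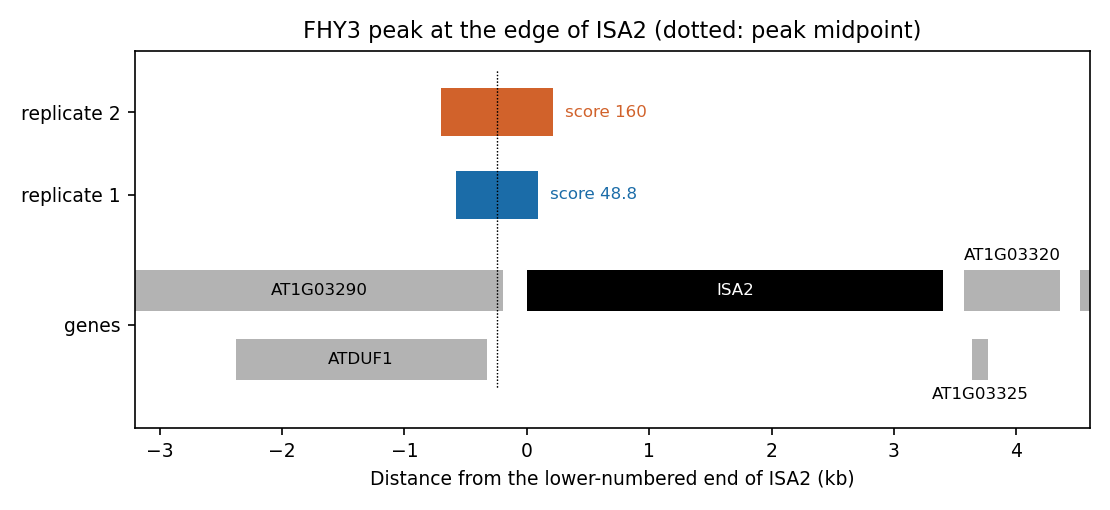
Intervals of the FHY3 peak in both replicates (coloured bars, with the authors' score) above the protein-coding genes (black for ISA2, grey for others), by distance in kb from the lower-numbered end of ISA2. Both intervals share a midpoint 243 bp outside ISA2 and inside AT1G03290, and cover the 196 bp between these genes.

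Among genes reached by a peak, ISA2 was reached by little sequence. In all, 524 protein-coding genes were overlapped by a shared peak within their own span, with a median of 739 bp inside the gene in replicate 1 and 847 bp in replicate 2. Only 20 of them (3.82%) had less than ISA2 in replicate 1, and 39 (7.44%) in replicate 2. A midpoint in another gene was common under the 3 kb rule. Of the 1463 genes with a shared peak within 3 kb, 614 (42.0%) had it centred inside another gene, 385 inside their own span and 464 between genes.

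The ISA2 peak scored in the middle of replicate 1 and higher up in replicate 2. Its score was 48.8 in replicate 1, rank 659 of 1475, above 55.3% of the list. In replicate 2 it was 160.03, rank 392 of 1354, above 71.0% of the list. The share of peaks scoring lower was thus 63.1% ± 11.1 (SD, n = 2). The gain of 15.7 percentage points from replicate 1 to replicate 2 was matched or exceeded by 109 of 944 overlapping pairs (11.5%), and the median pair changed by -0.874 points. Among shared peaks alone, ISA2 ranked 613 of 922 and 388 of 904. A score of at least 100, held by 385 and 491 nuclear peaks, was reached in replicate 2 but not in replicate 1.

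The peak was narrower than most in replicate 1 and near the middle in replicate 2. A share of 29.8% of nuclear peaks in replicate 1 and 47.0% in replicate 2 were narrower still. The median width of nuclear peaks was 906 and 953 bp, and that of shared peaks 976 and 1081 bp. Set beside the 1463 genes with a shared peak within 3 kb, ISA2 had a best score above 22.0% of them in replicate 1 and 37.9% in replicate 2. The medians of these genes were 119 and 228.

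**Figure D2:**
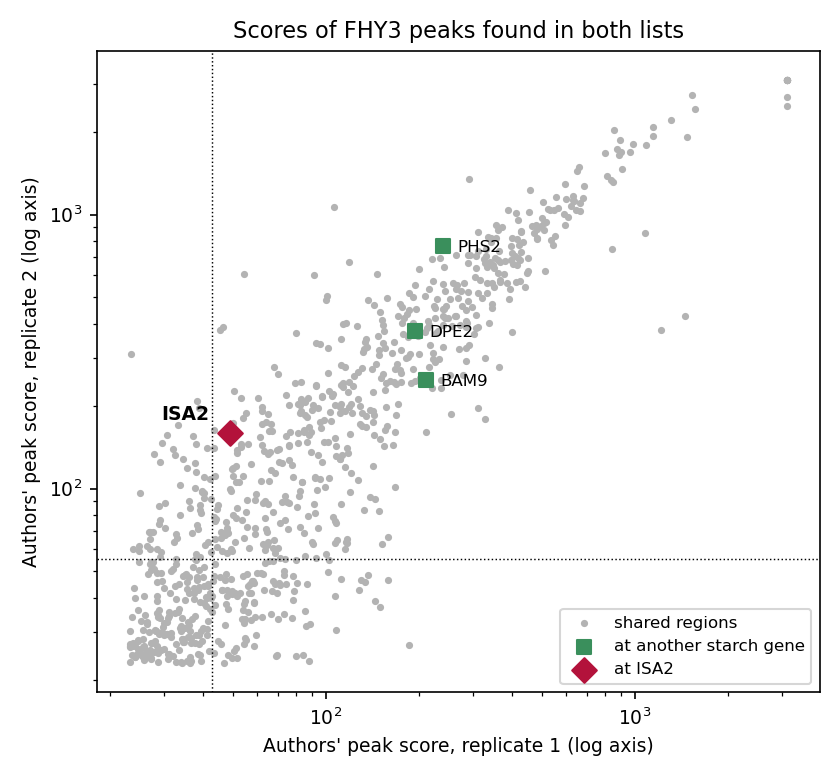
Authors' peak scores of the 882 regions found in both lists, replicate 1 against replicate 2 on log axes, with the region at ISA2 (diamond) and those at other starch genes (squares); dotted lines mark the median score of each list's nuclear peaks, 42.8 and 55.4. ISA2 lies just above the median of replicate 1 and farther above that of replicate 2, below PHS2, DPE2 and BAM9 in both.

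The regions most like ISA2 in rank were found by summing the differences of its score percentiles over the 2 lists. The closest of the 882 shared regions lay at AT5G51340, with scores of 48.3 and 165 and a summed difference of 1.15 percentage points. Next were the regions nearest to AT2G40130, also called SMXL8, a gene of strigolactone signalling (50.1 and 173), and to DML2, a gene of DNA demethylation (53.0 and 146). Those at AT3G57460 (51.6 and 138) and AT1G55380 (53.0 and 141) followed, the last with a difference of 5.2 points. This likeness rests on 2 values per region and says nothing of function.

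The nearest binding to ISA1 was at a different gene. Neither list had a peak within 3 kb of ISA1, and none overlapped its neighbours there. These are AT2G39910, AT2G39920, the long noncoding RNA gene AT2G09090 within ISA1, and COI1, the jasmonate receptor gene, whose span overlaps ISA1 by 2 bp. The nearest peak of each list lay 9.10 and 9.05 kb away, with its midpoint inside PROT1, a proline transporter gene. It ran on chromosome 2 from 16655686 to 16656750 in replicate 1, with a score of 109 (rank 359), and from 16655786 to 16656800 in replicate 2, with a score of 64.7 (rank 614). A further shared peak stood 11.7 and 11.3 kb from ISA1, with scores of 123 and 236. Of this pair of neighbouring peaks, the farther one had the better rank in both lists. Beyond the other end of ISA1 the nearest peaks were 40.3 and 40.1 kb away, inside AT2G40020, with scores of 117 and 140.42.

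ISA3 had no peak of either list within 3 kb, and what lay nearest to it differed between the replicates. Its single neighbour within that range, AT4G09012, 445 bp away, had none. The nearest peak in replicate 1 was 22.0 kb away, on chromosome 4 from 5760673 to 5761899, and scored 29.7 (rank 1091). In replicate 2 it was 23.8 kb away, from 5759152 to 5760152, and scored 26.9 (rank 1171). Both were near or in FBW2, an F-box protein gene, but they did not overlap, and neither was matched in the other list. The first peaks found in both lists stood 52.9 and 53.3 kb away at APRL6, with low scores of 23.7 and 26.5.

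**Figure D3:**
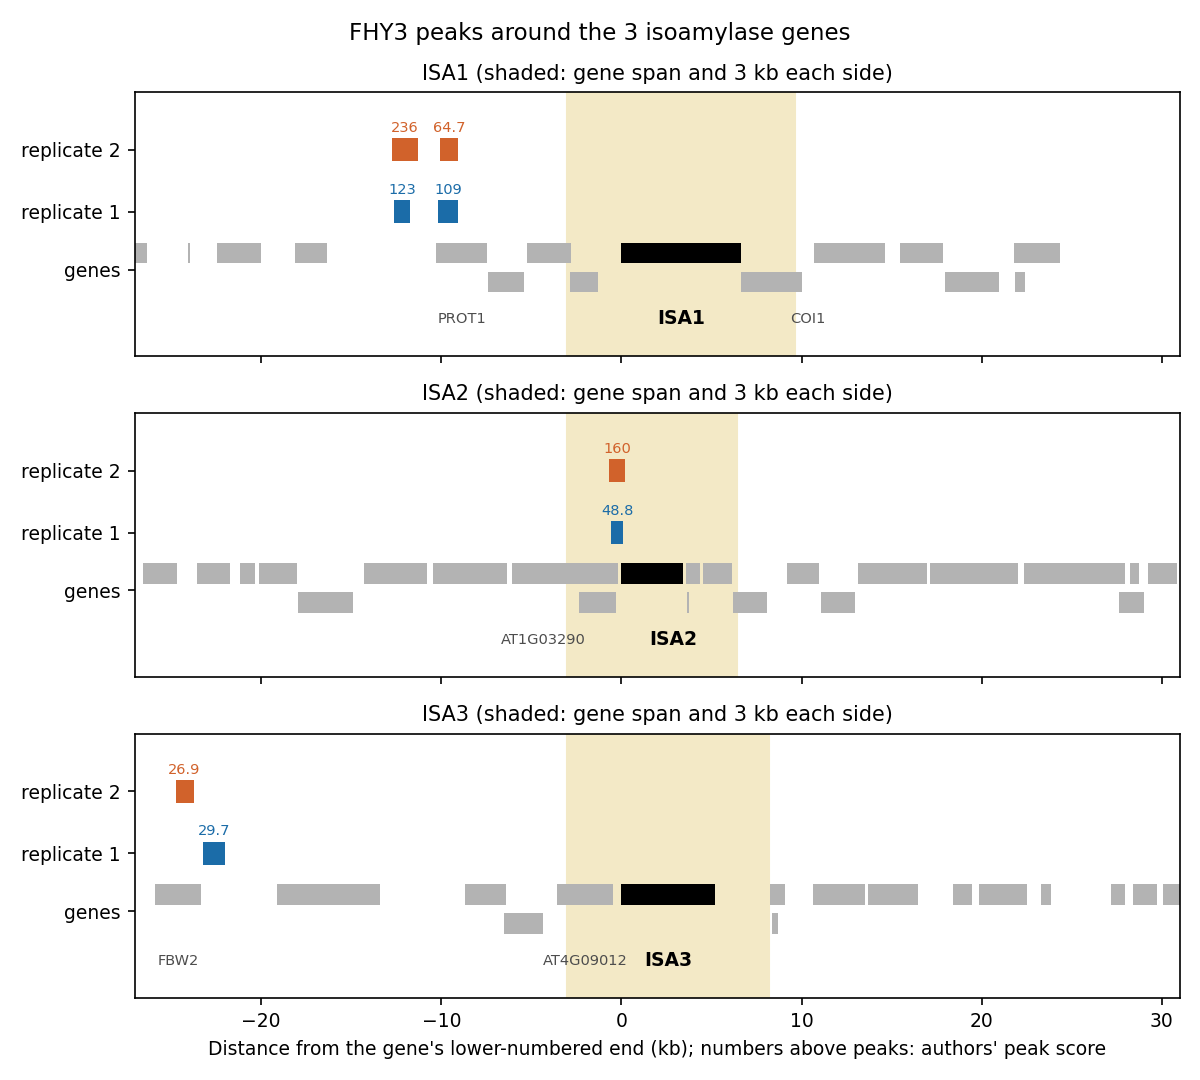
FHY3 peaks of replicates 1 and 2 (coloured bars, with the authors' score above) and protein-coding genes (grey; the isoamylase gene in black) by distance in kb from the lower-numbered end of ISA1, ISA2 and ISA3, with the gene span and 3 kb on each side shaded. Peaks enter the shaded range at ISA2 alone; the pair near ISA1 begins 9.05 kb from the gene, and those near ISA3 do not overlap each other.

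A peak within 3 kb was uncommon over the genome. In replicate 1 it was found at 7.24% of the 27444 protein-coding genes, in replicate 2 at 7.6%, and a shared one at 5.33%. The count at the isoamylase genes, 1 of 3, comes from too few genes to be read against these shares. ISA1 and ISA3 were nonetheless nearer to a peak than the median gene, which was 47.2 kb from one in replicate 1 and 43.5 kb in replicate 2. For ISA1, 15.4% and 16.2% of genes had a nearer peak, and for ISA3 29.6% and 33.1%. The values of ISA3 rest on low-ranked peaks without a match in the other list. Its nearest shared peaks, 52.9 and 53.3 kb away, were farther than these medians, which count every peak. The lack of a listed peak does not show that FHY3 was absent, since depth and the calling threshold are unknown.

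**Figure D4:**
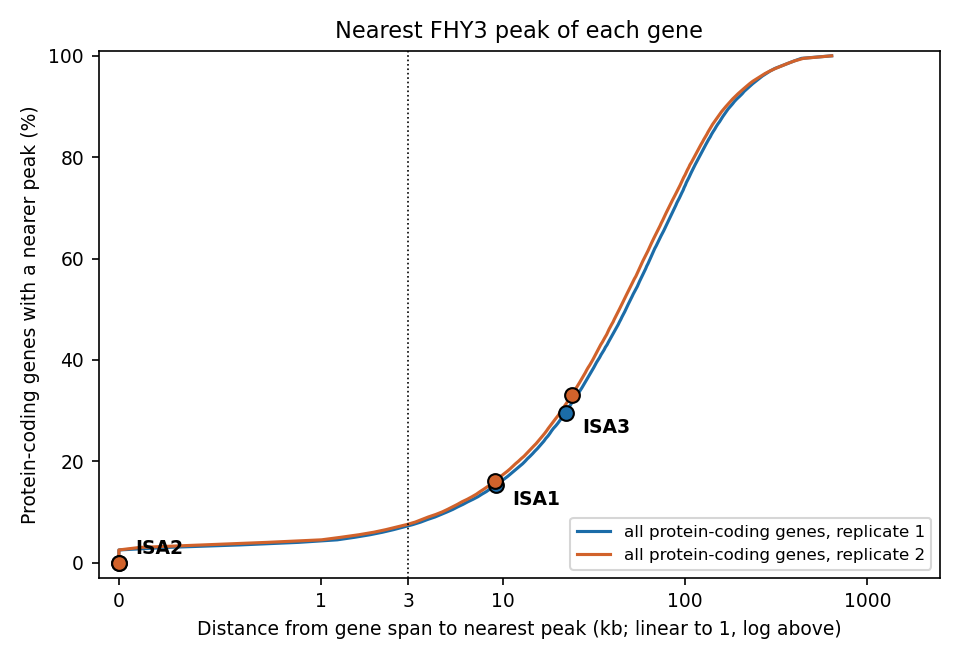
Share of protein-coding genes with a nearer peak (percent) against the distance from gene to nearest peak in kb, for each replicate (lines), with the isoamylase genes as points; the axis is linear to 1 kb and logarithmic above, and the dotted line marks 3 kb. ISA2 sits at 0 kb, ISA1 at 9.10 and 9.05 kb, and ISA3 at 22.0 and 23.8 kb.

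Other genes of starch metabolism were counted by the same rule. Of 46 such genes, 3 had a shared peak within 3 kb (6.52%, beside 5.33% of all genes), and the other 43 had no peak in either list. All 3 were among the 26 genes listed here under starch breakdown (11.5%), and none among the 20 listed under synthesis (0.0%). Lists this short hold too few genes to be read against the 5.33% of all genes. The isoamylases were in neither list, so the peak at ISA2 is not counted under synthesis. The difference between these lists was not tested. With 10 kb on each side, a distance chosen after the data were seen, the synthesis genes SS2 and PTST2 and the breakdown gene LSF1 were added.

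PHS2, the cytosolic glucan phosphorylase gene, was the only one with the peak inside the gene. It ran on chromosome 3 from 17303133 to 17304195 in replicate 1, with a score of 239 (rank 189), and from 17303055 to 17304341 in replicate 2, with a score of 767 (rank 89). All of both intervals lay within PHS2, unlike the peak at ISA2.

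At DPE2 and BAM9 the peaks overlapped a neighbour and not the starch gene. DPE2 encodes a glucanotransferase that processes maltose in the cytosol. Replicate 1 had a pair of peaks beside it, on chromosome 2 from 17041857 to 17043006 (score 194) and from 17043252 to 17043979 (score 37.5). Replicate 2 had a single interval from 17041991 to 17043947 (score 376). Its near end was 985 bp from DPE2, and it overlapped RHC1A, a RING finger protein gene. The peak near BAM9, which encodes a beta-amylase-like protein, lay on chromosome 5 from 6230106 to 6231016 in replicate 1 and from 6230102 to 6231235 in replicate 2. It scored 211 and 249.74 and overlapped TLP11, a tubby-like protein gene, 1911 and 1907 bp from BAM9. Midpoints lay inside RHC1A or TLP11, apart from the stronger replicate 1 peak near DPE2 and the replicate 2 peak near BAM9. These were centred 192 bp outside RHC1A and 38 bp outside TLP11. At PHS2, DPE2 and BAM9 the best score was higher than at ISA2 in both lists.

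The other listed genes for enzymes that cut or make branch points had no peak within 3 kb. LDA, which encodes a debranching enzyme of the pullulanase type, was 15.4 and 12.1 kb from the nearest peak. Nor did the branching enzyme genes SBE2.1 and SBE2.2 have one within 3 kb, or BE1, whose nearest peaks were 224 and 39.5 kb away. The next nearest after BAM9 were LSF1, a phosphatase-like gene of starch breakdown, at 5.09 and 4.99 kb, SS2, a starch synthase gene, at 5.29 and 5.17 kb, and PTST2 at 6.03 and 5.81 kb. The median distance was 46.8 and 42.6 kb over the 46 genes, beside 47.2 and 43.5 kb over all genes.

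**Figure D5:**
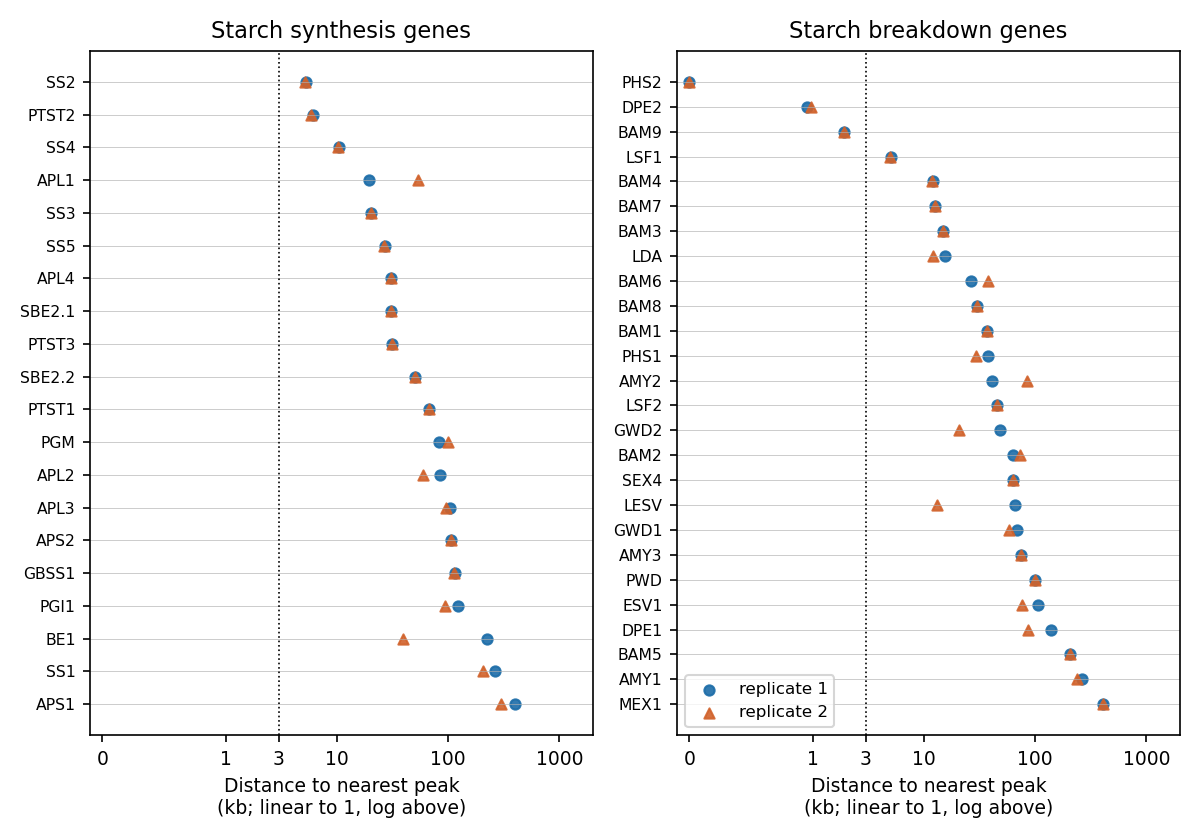
Distance in kb from each gene listed here under starch synthesis (left) or starch breakdown (right) to its nearest FHY3 peak. Circles are replicate 1 and triangles replicate 2. The axis is linear to 1 kb and logarithmic above, and the dotted line marks 3 kb. PHS2, DPE2 and BAM9 lie within 3 kb in both replicates.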

How the data were processed

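The data were peak lists from 2 FHY3 ChIP samples of Arabidopsis inflorescences, grouped by their titles; the 1 input sample entered no calculation. The tools named in the submitters' processing notes are CASAVA 1.8, MACS 1.4.2 and Bowtie2 2.2.3. Their settings, the peak caller's control and the build were not given in the sources used. Peaks were called per sample, and each deposited file gives the interval of a peak and its score, on an unstated scale. A deeper library can give more and higher-scored peaks.

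Starts were converted to count from 1. Gene names and spans came from the TAIR10.1 table of RefSeq. Ranks were taken among nuclear peaks, percentiles as the share of peaks scoring lower. A gene had a shared peak when peaks of both lists within 3 kb of its span overlapped by at least 1 bp. No test was run, since the series has no contrast. All 46 starch loci were found in the table, 39 of them also under the name used here. Named genes were the isoamylases, their neighbours within 3 kb, starch genes with a peak, and the genes at the 5 regions most like ISA2 by rank; other genes were named after their values were seen. The members and lists were chosen with earlier results of these data known. Overlap and distance steps were tested on simulated data. Python 3.11.15, numpy 2.4.6, pandas 2.3.3, networkx and matplotlib 3.10.9 were used. Sequences were not analysed here.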

Additional observations from a re-analysis of the deposited data

How the results depend on the processing

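The count of isoamylase genes with a shared peak stayed at 1, ISA2, with the gene span alone, 1 kb or 5 kb on each side, peaks at or above the median score, a reciprocal overlap of 50%, midpoints within 200 bp, and either replicate alone. It was 0 with a score of at least 100, because replicate 1 gave 48.8, and 2, with ISA1 added, at 10 kb, a distance chosen after the data were seen. Giving each peak to the gene that holds its midpoint, or to the gene with the nearest end, left 0 of the 2 ISA2 intervals with ISA2; both went to AT1G03290. The mean share of peaks scoring lower was 63.1%, and 45.3% among shared peaks alone. Of the 46 other starch genes, those with a shared peak numbered 1 by gene span, 2 at 1 kb, 2 with midpoints within 200 bp and 6 at 10 kb. Over all protein-coding genes, 1.91%, 3.12%, 4.78% and 12.6% had a shared peak at these settings. All protein-coding genes with one numbered 524 by gene span, 857 at 1 kb, 810 with a score of at least 100 and 3445 at 10 kb, and 1988 to 2087 with 1 replicate alone. A shared frame error would leave both ISA2 intervals within 3 kb for shifts of up to 3.09 kb to lower and 6.98 kb to higher positions. No paired analysis was possible because there is 1 ChIP group and no contrast. With depth unknown, a missing peak may lie below the calling threshold.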

Other observations

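The features that follow were singled out after the values were seen. The ISA2 region was 1 of 5 shared regions among 882 that touched at least 3 protein-coding genes, against 384 that touched none, 408 that touched 1 and 85 that touched 2. It was 917 bp wide, while the other 4 were 4157 to 10504 bp wide. ATDUF1 lies within AT1G03290 in the annotation, which adds to the count at ISA2.

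The 2 intervals at ISA2 had the same midpoint to the base, as did 6 of 944 overlapping pairs (0.636%); the median offset was 74 bp. The nearest other shared region was 117 kb away, at AT1G03730. Over the 882 regions the median distance was 23.3 kb, 82.0% had a nearer neighbour and 158 a farther one. That median includes dense runs of regions, as in the middle of chromosome 1, and none was taken outside such runs. Isolation is therefore not a trait of ISA2 alone. The neighbour at AT1G03730 scored 428 in replicate 1 and 860.43 in replicate 2. On the other side the nearest peak was 246 kb from ISA2 in both lists, at BXL2, a beta-xylosidase gene.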
